A study of Mus musculus with 21 samples.

Results

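The 10 genes described here are markers of reactive astrogliosis, namely Gfap, Vim, Lcn2, Cd44, Osmr, Steap4, Cp, S1pr3, Timp1 and Cd109. They were taken by their symbols from the 48474 rows of a table of read counts, and each symbol was found once. The rule itself uses symbols alone, but the genes were listed with earlier results of these data known.

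By the labels, bulk RNAseq was done on the neocortex of 21 mice, of which 10 were rNLS8 mice (labelled TG) and 11 were control littermates (labelled WT). rNLS8 mice carry a NEFH-tTA driver and a tetO transgene for human TDP-43 lacking its nuclear localization signal (TDP-43ΔNLS), on a C57BL/6J background, so that the transgene is made almost only in neurons. The controls were monogenic, which means that a WT mouse may carry either of these transgenes but not both. All 21 mice, TG and WT alike, were injected at 17 to 19 weeks of age into the cerebral ventricles with 350 µg of an antisense oligonucleotide that has no target, in a volume of 10 µL. Every mouse was on doxycycline diet (200 mg/kg), which keeps the transgene off, until 2 weeks after the injection, and neocortex was taken 3 weeks after the change to normal chow. The study's own text names the tissue as cortex in its methods and as hippocampus in one other place, and the label is used here. No mouse without oligonucleotide was part of the comparison. The mice came from independent cohorts, named batch A (4 WT and 3 TG) and batch B (7 WT and 7 TG), and the labels do not give the sex of each mouse.

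Astrocytes respond to injury, inflammation and neuron loss by a change of state called reactive astrogliosis, in which they enlarge and make more intermediate filament protein. Cytokines that signal through the receptor subunit gp130, such as oncostatin M and IL-6, activate the transcription factor STAT3 in these cells and are among the known drivers of this state. Lists of pan-reactive genes (shared by several kinds of injury), A1 genes (after systemic endotoxin) and A2 genes (after ischemia) are widely used to describe it. All members but Cd109 are on the pan-reactive list, and Cd109 is on the A2 list.

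Total counts were between 20700912 and 22263809 per library, and no pair of libraries had identical counts. In the labelled tissue, 6 neuron markers summed to between 6228 and 11194 CPM (counts scaled to the library total after its adjustment by TMM, which evens out differences in RNA composition). The 10 markers of astrocytes as such (Slc1a2, Aqp4, Gja1 and others) summed to between 5097 and 6435 CPM in WT and between 4388 and 5407 CPM in TG. Of these 10, 6 were lower in TG, for example Slc1a2, the main glutamate transporter, by a log2 fold change of -0.32, and none was higher in edgeR, at an unadjusted p under 0.05 or in DESeq2. Over all 18248 tested genes, 21.7% were called lower. Among 6 neuron markers 4 were lower in TG, with a median log2 fold change of -0.49. In bulk tissue, fewer cells of a type and less RNA per cell cannot be told apart. A pair of libraries stood apart in ways that touch the members. TG mouse T60303 of batch A had the highest normalized count of 7 of the 8 tested members among TG mice and the highest microglia marker sum (512 CPM, next 460 CPM). WT mouse T61334 of batch A had 2225 CPM of choroid plexus markers, against at most 866 CPM in the other WT mice and 1132 CPM in TG mice. It also had 399 CPM of fibroblast markers, against at most 194 CPM in the other WT mice and 235 CPM in TG mice. In TG mouse T61340, the deviation of genes from their mean fell with transcript length (Spearman rho -0.48 across 16149 genes, against -0.18 to 0.33 in the other libraries).

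Of the 10 genes, 8 had enough counts for edgeR's quasi-likelihood test, fitted with batch in the model, and 5 of them (Gfap, Vim, Osmr, Cd44 and S1pr3) were higher in TG mice at an adjusted p under 0.05. None was lower in edgeR, none was lower at an unadjusted p under 0.05, and none was lower in DESeq2. Over all 18248 tested genes, 23% were called higher and 44.7% were called in either direction, and these shares are the background for the 5 of 8. The median log2 fold change was 0.45 over the 8 genes and -0.000675 over all tested genes. Steap4, Cp and Cd109 did not pass the threshold. Lcn2 and Timp1 had too few counts for the test across all genes and are described by their counts. Where they were tested too, DESeq2 called 7 of the 10 members higher with batch and 6 without it. With no filter on low counts, edgeR called 7 higher.

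**Figure D1:**
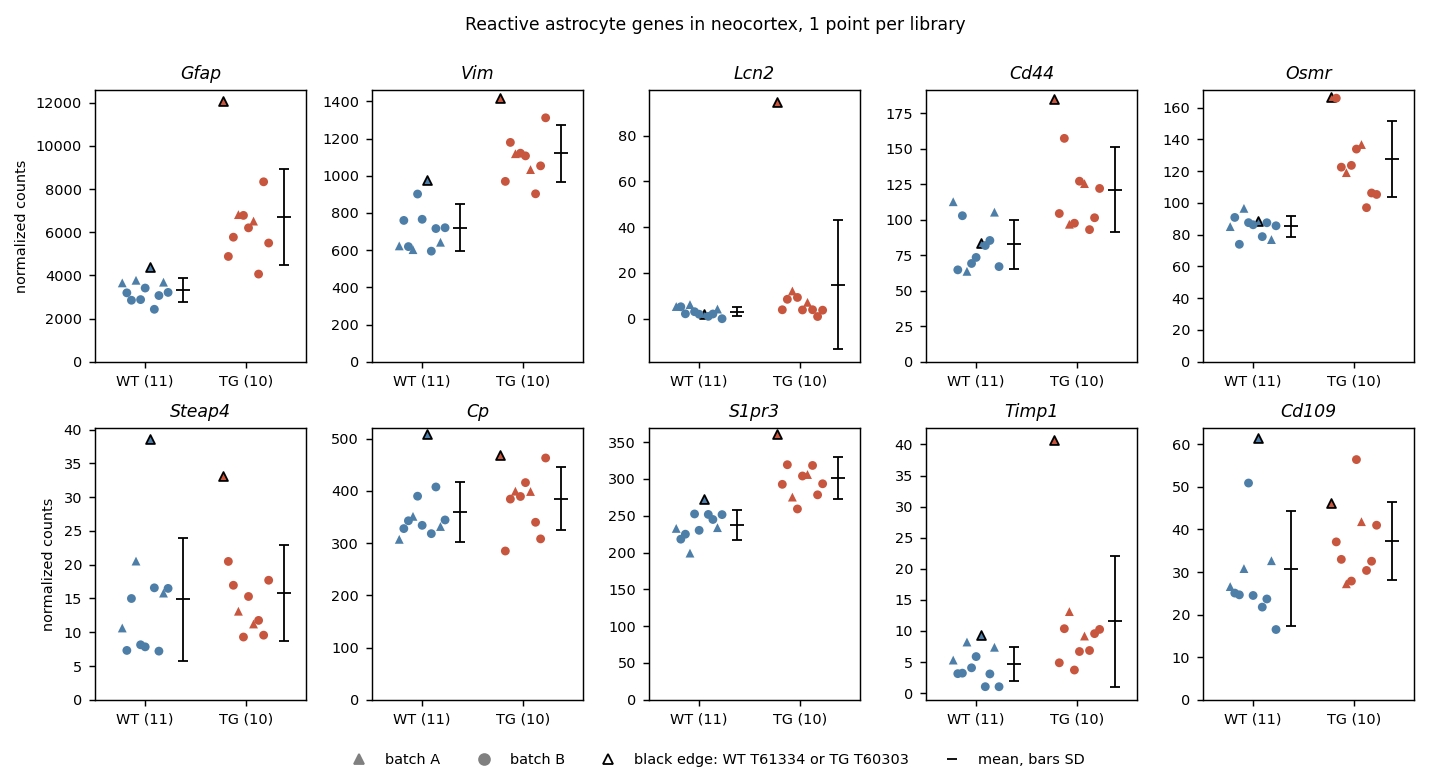
Normalized counts of the 10 genes (linear vertical axes, one panel per gene) in 11 WT and 10 TG libraries, with triangles for batch A, circles for batch B and bars for mean and SD. All 10 TG points lie above all WT points for Osmr, 9 do for Gfap, and a single TG point, T60303, stands far above the others for Lcn2 (94.5) and Timp1 (40.6).

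The intermediate filament genes came first. Gfap encodes the astrocyte filament protein by which reactive astrocytes are usually recognized, and lies on chromosome 11 of GRCm38 at chr11:102887336-102897200 on the minus strand. WT mice had 2431 normalized counts of Gfap at the lowest, 3213 at the median and 4386 at the highest. TG mice had 4063 at the lowest, 6361 at the median and 12101 at the highest. Of the 10 TG mice, 9 lay above every WT mouse, so the groups overlapped in 1 TG mouse (T_70267) and 1 WT mouse (T61334). The mean was 3323 ± 538 (SD, n = 11) in WT and 6697 ± 2229 (SD, n = 10) in TG. Gfap rose 2.04-fold in edgeR's quasi-likelihood test, by 1.03 on the log2 scale with a standard error (SE) of 0.11 and an adjusted p of 4.97e-08. By p-value Gfap took place 711 among the 18248 tested genes. Without T60303 the TG mean was 6097 ± 1239 (SD, n = 9) and the log2 fold change was 0.93. The coefficient of variation was 16.2% in WT and 33.3% in TG.

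The 250 bases in front of the RefSeq start of Gfap are shown because Gfap had the largest fold change of the tested members and because one of the letter patterns searched for occurs in them. For the 9 members with an entry in RefSeq's start sites on GRCm38.p6 (Cd109 had none, Cp had a pair of starts), these 250 bases were searched on both strands for the letters of STAT sites, TTCNNNGAA and, with 1 more base between, TTCNNNNGAA, for those of AP-1 sites, TGANTCA, and for those of interferon-stimulated response elements, GAAANNGAAA. Among 32851 start sites of the same table, 7.02% hold the first pattern, 5.85% the second, 6.75% the third and 2.98% the fourth. The second occurs in front of Gfap, Lcn2 and Cd44, the first in front of Steap4 alone and the third at one start of Cp. The 2 STAT patterns read the same on both strands and share the letters TTC and GAA at their ends. A match is a description of letters and not a measured binding site. No match is assigned here to STAT3 or to any other STAT protein. The upstream stretch of Gfap (chr11:102897201-102897450, minus strand) and 30-base stretches around the matches of Lcn2 (chr2:32387876-32387905, minus strand), Cd44 (chr2:102901857-102901886, minus strand) and Steap4 (chr5:7960346-7960375, plus strand) are given 5′ to 3′ with the match in capitals.
Gfap: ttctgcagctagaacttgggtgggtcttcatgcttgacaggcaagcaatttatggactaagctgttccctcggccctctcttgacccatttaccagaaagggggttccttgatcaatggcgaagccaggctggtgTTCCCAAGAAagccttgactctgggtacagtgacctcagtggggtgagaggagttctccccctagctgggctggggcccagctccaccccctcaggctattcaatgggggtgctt
Lcn2: tgccaagtatTTCAACAGAAtgtactggca
Cd44: cttcctcagcTTCCTGGGAAaaccagtctt
Steap4: ggttgaactcTTCCCGGAAactttgcttca
The windows of Vim and Osmr lie wholly within exons that GENCODE annotates for the same gene, and 197 of the 250 bases in front of Lcn2, 195 of those in front of one start of Cp and 15 of those in front of Steap4 do, so these windows are not all upstream of every annotated start. The match begins 115 bases in front of the start of Gfap, 156 in front of Lcn2, 211 in front of Cd44 and 116 in front of Steap4. Of these genes, Gfap and Cd44 were called higher, Steap4 was not called, and Vim, Osmr and S1pr3 were called higher with neither STAT pattern in their windows.

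Vim (chr2:13574311-13582826, plus strand) encodes vimentin, the filament protein that reactive astrocytes make together with GFAP and that endothelial and fibroblast cells make as well. WT mice had between 594.8 and 977 normalized counts with a median of 716. TG mice had between 903 and 1419 with a median of 1113. Of the TG mice 8 were above every WT mouse, and the overlap came from the highest WT mouse, again T61334. The mean rose from 720.5 ± 126 (SD, n = 11) to 1122 ± 153 (SD, n = 10), a log2 fold change of 0.64 (SE 0.090, adjusted p = 2.67e-06, edgeR). Per kilobase of exon, Gfap had the highest level of the 10 genes, with 36.9 CPM per kilobase in WT and 74.4 in TG, and Vim followed with 7.11 in WT and 11.1 in TG.

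Among genes of filament partners, fixed as a list of 4, Plec (plectin, which links filaments to other structures) was higher by 0.49 and Lmna (lamin A/C, a filament of the nucleus) by 0.31 on the log2 scale, with adjusted p of 2.25e-07 and 0.000113 (edgeR). Synm, which encodes the filament protein synemin, fell by 0.20 (adjusted p = 0.00371, edgeR). Nes, which encodes nestin, had a log2 fold change of 0.01 (adjusted p = 0.886, edgeR). For all tested genes, the shares called were 23% higher and 21.7% lower.

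Among the receptors, Osmr (chr15:6813568-6874968, minus strand) was the member whose genotypes did not overlap. It encodes the subunit that binds oncostatin M and signals together with gp130. WT mice had between 73.9 and 96.5 normalized counts (median 86.2) and TG mice between 97.0 and 166 (median 123). All 10 TG mice lay above all 11 WT mice, although the gap between the nearest mice was small. The same was found for 3.85% of all tested genes. The mean was 85.2 ± 6.50 (SD, n = 11) in WT and 128 ± 23.8 (SD, n = 10) in TG, a log2 fold change of 0.59 (SE 0.089, adjusted p = 8.56e-06, edgeR).

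The ligands that signal through gp130 had low counts. Of 8 ligand genes, 4 passed the filter (Lif, Clcf1, Ctf1 and Il11), and none was called in edgeR, at an unadjusted p under 0.05 or in DESeq2. Osm itself was below the filter, with 2.83 ± 1.94 (SD, n = 11) normalized counts in WT and 3.57 ± 1.75 (SD, n = 10) in TG. Of 6 tested receptor genes of this family, Cntfr (log2 fold change 0.19, adjusted p = 0.0012, edgeR) and Il6st, which encodes gp130 (0.16, adjusted p = 0.0371), were higher and none was lower in edgeR, 2 were lower at an unadjusted p under 0.05, and none was lower in DESeq2. In the signaling chain below them, Stat3 was higher by 0.22 (adjusted p = 9.86e-06, edgeR) and Pias3, an inhibitor of STAT3, by 0.17 (adjusted p = 0.00296). Socs3, the feedback inhibitor, fell by 0.28 (adjusted p = 0.0425), Jak1, a kinase, by 0.14 (adjusted p = 0.0126) and Ptpn11, a phosphatase, by 0.15 (adjusted p = 0.00273, all edgeR). DESeq2 called 2 of these 7 tested genes lower, against the 3 in edgeR. Over all tested genes, edgeR called 23% higher and 21.7% lower.

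Cd44 (chr2:102811141-102901669, minus strand) encodes the cell surface receptor for hyaluronan. Normalized counts were between 63.7 and 113 in WT mice (median 81.9) and between 93.1 and 185 in TG mice (median 113). The groups overlapped, with 5 TG mice above every WT mouse and 8 WT mice below every TG mouse. The mean was 82.7 ± 17.4 (SD, n = 11) in WT and 121 ± 30.0 (SD, n = 10) in TG, a log2 fold change of 0.57 (SE 0.13, adjusted p = 0.000668, edgeR). Without T60303, which had the highest value, the log2 fold change was 0.48 and stayed past the threshold (adjusted p = 0.00244, edgeR).

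Of 6 tested partner genes of CD44, Msn (moesin, which ties CD44 to actin) was higher by 0.26 (adjusted p = 0.000936, edgeR), and Has3, a hyaluronan synthase, fell by 0.79 (adjusted p = 0.00014, edgeR). Spp1, which encodes the CD44 ligand osteopontin, had a log2 fold change of 0.46 that did not pass the threshold (adjusted p = 0.109, edgeR). In T60303 it had 902 counts. Among all tested genes, 23% were called higher and 21.7% lower.

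S1pr3 (chr13:51408618-51422797, plus strand) encodes a receptor for the lipid sphingosine-1-phosphate (S1P). WT mice had between 199 and 272 normalized counts (median 234) and TG mice between 259 and 361 (median 299). Apart from 1 TG mouse and 1 WT mouse, the groups were separate. The mean was 237 ± 19.9 (SD, n = 11) in WT and 301 ± 28.5 (SD, n = 10) in TG, a log2 fold change of 0.34 (SE 0.061, adjusted p = 5.84e-05, edgeR), the smallest change among the 5 called genes. On the opposite strand the noncoding gene Gm32834 shares 45 exonic bases with S1pr3, and it had 323 counts over all libraries against 5645 for S1pr3. How the counting used strand is not given in the sources used here.

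Of 7 tested genes of S1P handling, 4 were higher and 1 was lower, where 23% of all tested genes were called higher and 21.7% lower. Spns2, the S1P exporter, was higher by 0.60 (adjusted p = 1.29e-08, edgeR) and Sgpl1, the S1P lyase, by 0.53 (adjusted p = 1.09e-08). S1pr2, another S1P receptor, was higher by 0.45 (adjusted p = 0.00127) and the kinase Sphk2 by 0.16 (adjusted p = 0.0372). S1pr1, a further S1P receptor, fell by 0.25 (adjusted p = 0.000809, edgeR).

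Cd109 (chr9:78615546-78716260, plus strand) encodes a membrane protein that binds TGF-beta. Its normalized counts ran from 16.5 to 61.5 in WT mice (median 25.1) and from 27.2 to 56.4 in TG mice (median 35.0). Of the 11 WT mice 7 lay below every TG mouse, and no TG mouse lay above every WT mouse, because T61334 was the highest of all. The mean was 30.8 ± 13.5 (SD, n = 11) in WT and 37.4 ± 9.19 (SD, n = 10) in TG, and the log2 fold change of 0.31 (SE 0.19) did not pass the threshold (adjusted p = 0.194, edgeR). Its 95% interval ran from -0.06 to 0.68. It passed when T61334 was left out (0.43, adjusted p = 0.0458, edgeR) and when WT mouse T_69527, the next highest WT mouse, was left out (0.45, adjusted p = 0.0424), but not when T60303 and T61334 were left out together (0.40, adjusted p = 0.0811). Among 8 TGF-beta genes, Tgfb3 (0.37, adjusted p = 4.48e-06, edgeR) and Tgfb1 (0.34, adjusted p = 0.0055) were higher and Tgfb2 fell by 0.37 (adjusted p = 0.0206, edgeR). As a background, 23% of all tested genes were called higher and 21.7% lower.

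The secreted members Lcn2 and Timp1 were the sparsest of the 10. Lcn2 (chr2:32384637-32387739, minus strand) encodes lipocalin 2, which binds iron-carrying siderophores and is a known product of reactive astrocytes and of neutrophils. WT mice had between 0 and 6 counts and TG mice between 1 and 100 counts, and a count of 0 allows up to 3 counts at this depth. In normalized counts, the median was 2.14 in WT and 5.53 in TG, and 5 TG mice lay above every WT mouse. T60303 had 94.5 normalized counts, and the next TG mouse 12.1. The difference in log2 CPM (prior count 2, batch in the model) was 1.08, with p = 0.00294 in an exact two-sided permutation test of the 120120 arrangements within batch (n = 11 and 10). Without T60303 it was 0.73, with p = 0.0104 in the same exact test. Summed over mice, TG had 155 counts and WT 32, a ratio of 4.96 scaled to depth (95% interval 3.37 to 7.50), and without T60303 TG had 55 counts and the ratio was 1.96 (95% interval 1.24 to 3.13), where the intervals cover counting error only. With no filter on low counts, edgeR gave Lcn2 an adjusted p of 0.000718. In batch B alone the exact permutation p was 0.0594 (7 WT and 7 TG).

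Markers of neutrophils, which also make Lcn2, were near 0 in both genotypes. The 8 markers summed to between 0.193 and 1.81 CPM in WT and between 0.493 and 1.79 CPM in TG, none passed the filter, and T60303 had 1.28 CPM, within the range of the others. The part of either cell type in the Lcn2 values was not tested, and microglia markers were highest in T60303.

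Timp1 (chrX:20870166-20874737, plus strand) encodes a secreted inhibitor of matrix metalloproteinases. Counts ran from 1 to 9 in WT mice and from 4 to 43 in TG mice. In normalized counts, the median was 4.07 in WT and 9.38 in TG, and 5 TG mice lay above every WT mouse. The difference in log2 CPM was 0.96 (p = 0.000241, exact two-sided permutation test within batch, n = 11 and 10), and without T60303, which had 43 of the 120 TG counts, it was 0.80 (exact p = 0.000816). With no filter, edgeR gave Timp1 an adjusted p of 0.000711. In batch A alone, with 4 WT and 3 TG mice, the exact permutation p was 0.0571. Timp1 lies inside Syn1, a neuronal gene on the other strand with 246203 counts over all libraries, but their exons share 0 bases.

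Among 9 tested genes of metalloproteinases, inhibitors and TIMP1 binding partners, Mmp2 (0.46, adjusted p = 0.0073, edgeR) and Itgb1, which encodes integrin beta-1 (0.21, adjusted p = 0.00104), were higher. Timp2, which encodes a related inhibitor, fell by 0.38 (adjusted p = 6.84e-05, edgeR). Timp3 and Timp4 had log2 fold changes of -0.05 and 0.03 and were not called (adjusted p = 0.522 and 0.738, edgeR). Calls over all tested genes amounted to 23% higher and 21.7% lower.

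The metal-handling members Steap4 and Cp were not called as different between the genotypes. Steap4 (chr5:7960472-7982213, plus strand) encodes a membrane reductase for iron and copper. It had 14.9 ± 9.11 normalized counts in WT (SD, n = 11, at most 38.6) and 15.8 ± 7.08 in TG (SD, n = 10, at most 33.1), and no TG mouse lay above every WT mouse. The log2 fold change was 0.17 (SE 0.26, 95% interval -0.34 to 0.67, adjusted p = 0.633, edgeR). This wide interval also holds the fitted changes of Vim, Osmr, Cd44 and S1pr3. The change of Steap4 was 0.34 without T61334 (the highest WT mouse) and 0.02 without T60303 (the highest TG mouse), and neither value was called.

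Cp (chr3:19956933-20009750, plus strand) encodes ceruloplasmin, the copper-bearing ferroxidase. It had a median of 343 normalized counts in WT (307 to 509) and of 394 in TG (285 to 469), and the groups overlapped over most of their range, with the lowest mouse in TG and the highest in WT. The log2 fold change was 0.10 (SE 0.088, 95% interval -0.07 to 0.28, adjusted p = 0.363, edgeR). The upper limit of the interval of Cp lay below the fitted change of each of the 5 called genes. It lay within the 95% interval of S1pr3, however, which ran from 0.22 to 0.46. Without T61334, the highest mouse, the log2 fold change of Cp was 0.15 and was not called (adjusted p = 0.122, edgeR). Hps3 on the other strand shares 108 exonic bases with Cp. Of 6 iron and lipocalin partner genes, Slc22a17, a lipocalin 2 receptor, was higher by 0.16 (adjusted p = 0.0338, edgeR) but not called in DESeq2 without batch. None was lower in edgeR or in DESeq2, and 2 were lower at an unadjusted p under 0.05. The shares over all tested genes were 23% higher and 21.7% lower.

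For Cp, Steap4 and Cd109, the highest of all 21 mice was the WT mouse T61334, with 509, 38.6 and 61.5 normalized counts, and for Gfap, Vim, S1pr3 and Timp1 it was the highest WT mouse. This mouse also had the highest choroid plexus, fibroblast, pericyte (284 CPM, next 258 CPM) and ependyma (18.9 CPM, next 18.6 CPM) marker sums of all 21. Choroid plexus markers did not differ between the genotypes as called by edgeR (0 of 6, 0 at an unadjusted p under 0.05 and 0 in DESeq2). In batch A, which holds T61334, all 6 had a negative log2 fold change (-1.76 to -1.49), and in batch B all 6 had a positive one (0.40 to 1.19), with no call in either batch or for the difference between the batches (edgeR). The part of these cell types in the values of these genes was not tested. With T60303 and T61334 both left out, the same 5 members were past the threshold, with Gfap at 0.95, Vim at 0.64, Osmr at 0.54, Cd44 at 0.48 and S1pr3 at 0.32 on the log2 scale.

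**Figure D2:**
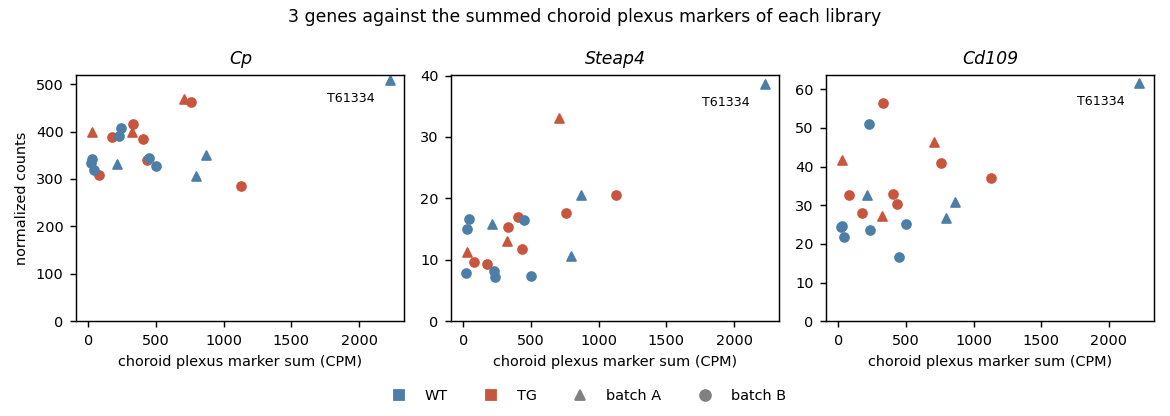
Normalized counts of Cp, Steap4 and Cd109 against the summed CPM of 6 choroid plexus markers, 1 point per library, coloured by genotype and shaped by batch. WT mouse T61334 lies at the far right at 2225 CPM and is the highest mouse in each panel.

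Within the batches, the direction of the 5 called genes was the same. In batch A alone (4 WT and 3 TG), 3 of 8 members were called higher (Gfap, Vim and Osmr), where 6.99% of 18580 tested genes were called higher. In batch B alone (7 WT and 7 TG), all 5 were called, where 19.3% of 18220 tested genes were called higher. The log2 fold change of Gfap was 1.15 in batch A and 0.97 in batch B, that of Vim 0.77 and 0.58, and that of Osmr 0.72 and 0.52. Cd44 had 0.60 in batch A (adjusted p = 0.149, edgeR) and 0.55 in batch B (adjusted p = 0.00229), and S1pr3 had 0.45 in batch A (adjusted p = 0.0695) and 0.29 in batch B (adjusted p = 0.00103). Steap4 had opposite signs, with -0.13 in batch A and 0.36 in batch B, and neither passed the threshold. A test of the difference between the batches (interaction term, edgeR) called none of the 8 members, none at an unadjusted p under 0.05 and none in DESeq2, and it called none of all 18248 genes (1030 at an unadjusted p under 0.05, and 1 gene in DESeq2).

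**Figure D3:**
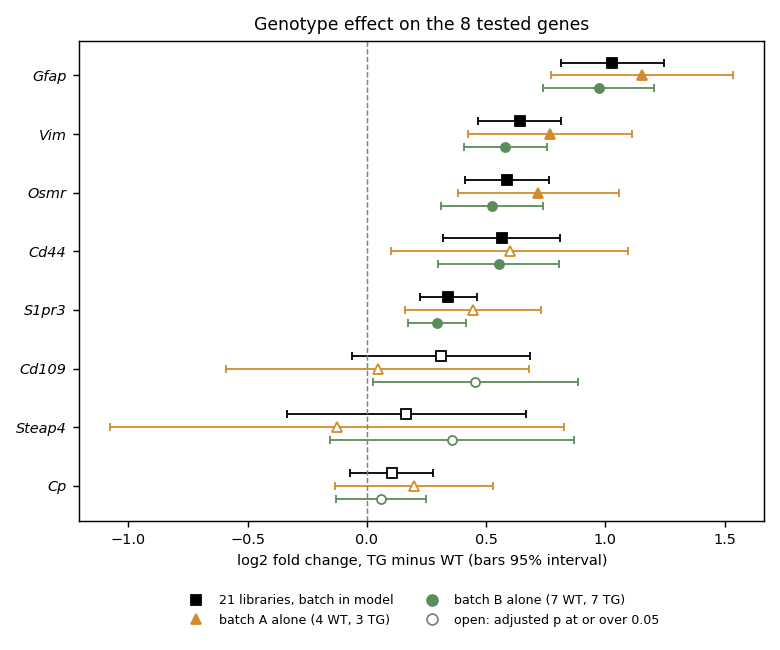
Log2 fold change of TG over WT with 95% intervals for the 8 tested genes, in all 21 libraries with batch in the model (squares), in batch A alone (triangles) and in batch B alone (circles), with open symbols at an adjusted p of 0.05 or more. Gfap, Vim and Osmr are filled in all 3 fits, Cd44 and S1pr3 are open in batch A, and Cd109, Steap4 and Cp are open throughout.

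Per length, the 5 highest members came in the same order in both genotypes. After Gfap and Vim came S1pr3 with 2.49 CPM per kilobase of exon in WT and 3.16 in TG, Cp with 1.76 and 1.89, and Cd44 with 0.572 and 0.837. Osmr had 0.330 in WT and 0.494 in TG. In WT, Timp1 (0.248), Steap4 (0.222) and Cd109 (0.209) lay within their spread of one another, and Lcn2 was lowest at 0.0540. In TG, Timp1 had 0.608, Lcn2 0.264, Cd109 0.254 and Steap4 0.235. The places of Timp1 and Lcn2 in TG rested on T60303, without which Osmr had 0.477, Timp1 0.437, Cd109 0.247, Steap4 0.207 and Lcn2 0.106, the lowest again.

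The TG mice differed among themselves. In normalized counts, T60303 was the highest TG mouse for 7 of the 8 tested members and for Lcn2 and Timp1, and T_69531 was the highest for Cd109. T_70267 was the lowest TG mouse for 4 of the 8. Measured against the WT mice of its own batch in log2 CPM, T60303 was higher by 1.65 for Gfap, 3.95 for Lcn2 and 2.17 for Timp1, and T_70267 was higher by 0.44, 0.59 and 0.88. Every TG mouse was above the WT mean of its batch for Gfap, Vim, Cd44, Osmr, S1pr3 and Timp1.

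**Figure D4:**
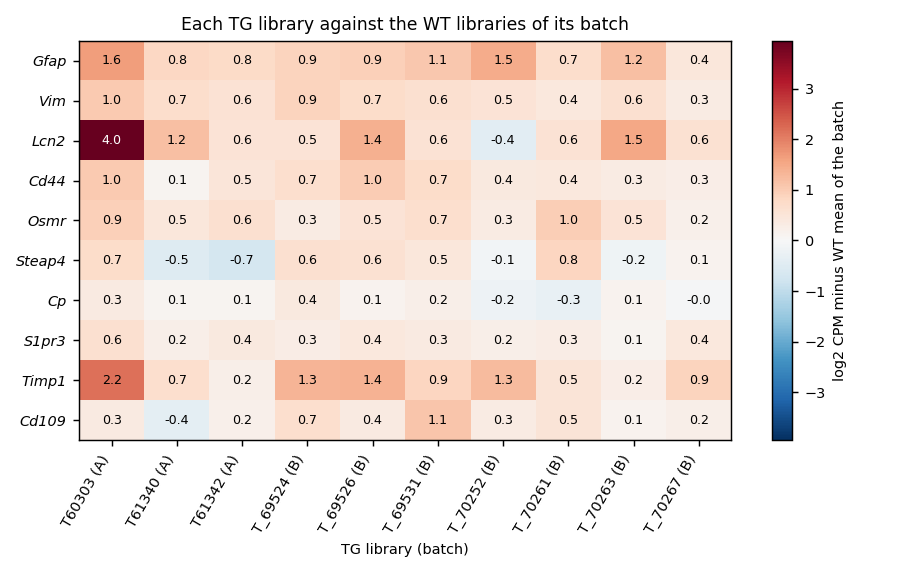
Log2 CPM of each gene (rows) in each TG library (columns, batch in parentheses) minus the mean of the WT libraries of the same batch, with red for higher and blue for lower. The column of T60303 is the darkest. Lcn2, Steap4, Cp and Cd109 hold both signs, while Gfap, Vim, Cd44, Osmr, S1pr3 and Timp1 are positive in all 10 columns.

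Whether members varied with Gfap from mouse to mouse was asked over the 10 TG libraries, in log2 CPM, for 9 pairs. Pearson's r ran from 0.24 (Cd109) to 0.72 (Timp1), and none of the 9 pairs passed 0.05 after adjustment over the 9, by permutation of r or of Spearman's rho. The strongest were Timp1 (r = 0.72, permutation p = 0.0305, adjusted 0.155, rho = 0.44 with permutation p = 0.204 and adjusted 0.666), Vim (r = 0.67, permutation p = 0.0345, adjusted 0.155, rho = 0.45 with permutation p = 0.191 and adjusted 0.666) and Lcn2 (r = 0.65, permutation p = 0.0637, adjusted 0.191, rho = 0.39 with permutation p = 0.265 and adjusted 0.666). Without T60303 and T_70267, the mice farthest from the median of Gfap, r ran from -0.90 to 0.23 and was -0.09 for Vim. Of the 9 pairs, Timp1 alone kept a positive r (0.23) without these mice, so the other positive values rested on them, and leaving them out also narrows the range of Gfap. Within batch B (7 TG mice) r ran from -0.63 (S1pr3) to 0.41 (Vim) and was 0.13 for Timp1, and batch A had too few TG mice for a value.

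After removal of the means of each genotype and batch, the tested genes most like Gfap over the 21 libraries were C4b-4 (Pearson's r = 0.86), Mettl15 (0.86), Mtfr1 (0.83), Mpeg1 (0.81) and C4b-3 (0.79), where C4b-3 and C4b-4 are copy rows of the complement gene C4b. These values are a description over libraries that share depth and batch. Without T60303 they were 0.77, 0.80, 0.74, 0.67 and 0.65, and Mpeg1 and C4b-3 were at places 45 and 75. The genes most like Gfap were then Gstm2-ps1, Mettl15, Gpank1-3, Pin4 and Wfdc1, with r between 0.78 and 0.80. Of the other members, Vim had 0.55 at place 291, and the other tested members had between 0.09 (S1pr3) and 0.29 (Osmr). Without T60303, Vim had 0.46 at place 791, and the others ran from -0.28 (S1pr3) to 0.20 (Cp).

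Beyond the 10 genes, the other pan-reactive genes split evenly, with 2 of 4 called higher. Cxcl10, an interferon-inducible chemokine, rose from 3.56 ± 3.33 (SD, n = 11) to 142 ± 53.2 (SD, n = 10) normalized counts, a log2 fold change of 5.31 (SE 0.29, adjusted p = 1.38e-12, edgeR). Serpina3n, a secreted protease inhibitor, rose by 1.10 (adjusted p = 1.97e-08). Hspb1 and Aspg had 0.08 each and were not called (adjusted p = 0.59 and 0.71, edgeR). Of the A1 genes, 7 of 11 tested were higher and none was lower in edgeR, at an unadjusted p under 0.05 or in DESeq2, with a median log2 fold change of 0.49. The highest were Iigp1 (1.80, adjusted p = 2.16e-11), an interferon-inducible GTPase, H2-D1 (1.50, adjusted p = 3.16e-10), an MHC class I gene, Psmb8 (1.30, adjusted p = 5.92e-08), an immunoproteasome subunit, and Gbp2 (1.22, adjusted p = 1.33e-09, edgeR), a guanylate-binding protein. The table splits the reads of H2-D1 and Psmb8 over copy rows, so their values are uncertain. Of the other A2 genes, 2 of 9 tested were higher, namely Cd14 (0.56, adjusted p = 0.000326, edgeR), which encodes an endotoxin co-receptor, and Stat3. Ptgs2, which encodes the prostaglandin synthase COX-2, fell by 0.69 (adjusted p = 2.01e-05, edgeR). Several of the A1 genes are also made by microglia or endothelium, and of 8 microglia markers 4 were higher and 1 was lower in TG (median 0.10), with sums of 358 to 409 CPM in WT and 379 to 512 CPM in TG. The part of microglia in the changes of these lists was not tested. Over all 57 tested partner genes, 16 were higher and 8 were lower, with a median of 0.04, where 23% and 21.7% of all tested genes were called.

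**Figure D5:**
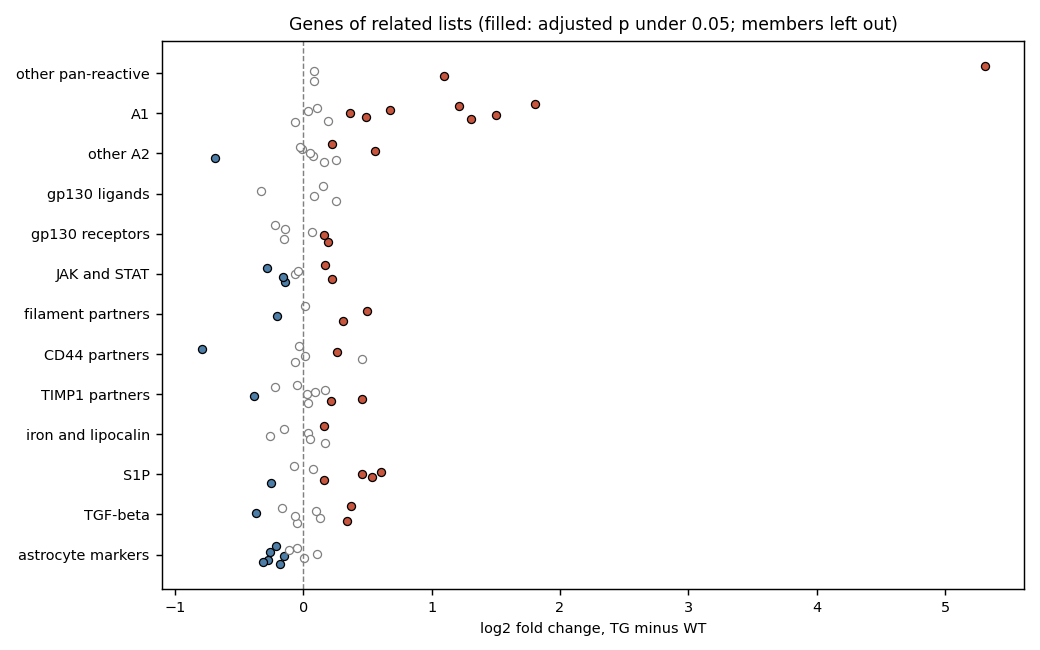
Log2 fold change of TG over WT for the tested genes of each related list, members left out, with filled points for an adjusted p under 0.05 (red higher, blue lower) and open points otherwise. Cxcl10 lies far to the right at 5.31, the A1 genes reach 1.80, the partner lists hold both directions, and the 6 filled astrocyte markers all lie to the left of 0.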

How the data were processed

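Neocortex RNA (30 mg tissue, 100 bp paired-end reads) of 21 mice was sequenced by BGI. The authors deposited raw whole-number read counts per gene symbol, with no normalization. The study aligned reads to GRCm38, and the submitters' processing notes name mm10, HISAT, HISAT2, Bowtie, Bowtie2 and RSEM; versions, the counting step and its use of strand are not given in the sources used here. All 21 samples were used, with groups and batches from the labels. Each mouse was one library, so p-values measure the spread between mice. Mouse numbers are not shared between the genotypes and pair no samples.

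Counts were analyzed with edgeR 4.0.16 in R 4.3.3, using filterByExpr by genotype (minimum count 10, minimum total 15, 18248 genes kept), TMM, batch plus genotype and the quasi-likelihood test. P-values were two-sided and adjusted by Benjamini-Hochberg over every gene in the fit, and 0.05 was the threshold. Standard errors are the log2 fold change divided by the square root of F, and 95% intervals are 1.96 standard errors to each side. CPM were computed on the effective library size (the total times the TMM factor), and normalized counts were scaled to its mean. Lcn2 and Timp1, below the filter, were tested by exact permutation within batch, chosen after they were seen to fail it. Correlations used 100000 permutations. Levels per kilobase used GENCODE vM21 exons, and start sites and positions are from RefSeq GRCm38.p6. Rows of further copies of a symbol (2553 rows, 4.11% of counts) were kept. Reads carry no molecular identifiers, so counting limits cover counting error only.

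All members, the genes of the fixed lists and the 5 genes most like Gfap were named, the lists' examples by the largest changes among called genes. The members and lists were chosen with earlier results of these data known. Alternatives were DESeq2 1.42.0 with and without batch, edgeR without batch, other scalings and filters, each batch alone, the level of Xist as covariate, copy rows left out, other prior counts, each mouse left out in turn, and T60303 left out together with T61340 or T61334. The procedure was tested on simulated data.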

Additional observations from a re-analysis of the deposited data

Results flagged for a closer look

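Dixon's criterion (95% level, gap to the next mouse as a share of the whole range) marked 5 of the 23 sets of TG values examined. It was applied on the linear scale with both batches pooled. About 1.15 marked sets would be expected by chance if the sets were independent and normally distributed. The sets come from the same mice, so whether 5 exceeds chance was not tested. In 4 of the 5 the marked mouse was T60303, at the high end. In log2 CPM, its Gfap was 9.15, against 8.61 in the next TG mouse and 7.57 in the lowest. Its Steap4 was 0.72, against 0.08 and -0.92. The criterion was not applied on that scale. The gap was 0.468 of the range for Gfap (12101 against 8337 normalized counts in the next mouse), 0.881 for Lcn2 (94.5 against 12.1), 0.529 for Steap4 (33.1 against 20.5) and 0.745 for Timp1 (40.6 against 13.1). The other was the summed endothelial markers of T_70267, which were low at 250 CPM against 281 CPM in the next mouse, with a gap of 0.513 of the range. Groups of more than 10 were not examined, so the 11 WT mice were left out, among them T61334 with 38.6 normalized counts of Steap4.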

How the results depend on the processing

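Gfap, Vim and Osmr kept their direction and stayed past the threshold under all 13 planned or added alternatives and when each of the 21 mice was left out. In batch A alone, 3 members were called higher, Cd44 and S1pr3 were no longer past the threshold, Steap4 turned to -0.13, 1 of the other A2 genes was higher and 0 were lower, and 5 partner genes were higher and 1 was lower. Fewer samples were tested there, and 2195 genes were called against 8154 in all 21 libraries. With at least 10 counts required in every library, 1 of the other pan-reactive genes was called higher, since Cxcl10 was not tested. With scaling by library size only, which moved the median of all genes to 0.08, 21 partner genes were higher and 3 were lower in TG. The TMM factors, which this setting leaves out, were above 1 in all 10 TG mice (at most 1.07) and below 1 in all 11 WT mice (at least 0.962). The correlation of Gfap among TG mice turned to -0.0205 for Lcn2, -0.51 for Steap4, -0.60 for S1pr3 and -0.0523 for Cd109 without T60303. Lcn2 missed the threshold in batch B alone (exact p = 0.0594) and in DESeq2 without batch (adjusted p = 0.0866), but passed it in DESeq2 with batch. Timp1 missed it in batch A alone (exact p = 0.0571). Leaving out each mouse gave a Gfap change between 0.93 and 1.08. Depth limits Lcn2, Timp1 and Steap4, with at most 9 counts of Lcn2 or Timp1 in any WT mouse. No paired analysis was possible because the genotypes share no replicate numbers.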

Other observations

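T60303 also held much of the count of a few sparse list genes, which were picked out after their values were seen. Tgm1, a transglutaminase of the A2 list, had 101 counts over the 21 libraries, of which 47 were in T60303. Mmp3, a metalloproteinase, had 29 counts, of which 22 were in T60303. Both were below the filter and were not tested.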
